A study of Drosophila melanogaster with 2 samples.

Results

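CLAMP occupancy was examined at the 262 genes of the dm6 annotation whose symbols start with mir-, out of 17873 annotated genes other than transposable elements, and at the genes that host them. Of these miRNA genes, 260 lie on the 6 assembled chromosome arms analysed, while mir-10404-1 and mir-10404-2 lie on an unplaced ribosomal DNA sequence and could not be given a distance. Hairpins under 10 kb apart on the same arm were joined, which gave 198 clusters. A total of 165 genes held a whole hairpin on their own strand and were taken as host genes, 128 of them protein-coding and 37 noncoding. The rule for a member uses its symbol and no peak value, although it was set with earlier results of these data known.

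The data were 2 biological replicates of CLAMP ChIP-seq, numbered 4 and 2, from Drosophila melanogaster embryos aged 0 to 24 h, males and females together. Both came from the same transgenic line, which carries Clamp (CG1832) with GFP fused to the C terminus of the protein. Sonicated chromatin fragments of 200 to 800 bp were recovered through the GFP tag with an antibody. The replicates form 1 group with no second condition, so every count below is a description and carries no test between conditions. The labels do not say which promoter drives the fusion, or whether endogenous CLAMP was also present. Whole embryos mix all cell types and stages, so a peak shared by few cells with high occupancy and a peak shared by many cells with low occupancy cannot be told apart, and no miRNA level was measured. Peaks are those of the optimal list, the 3077 peaks of dm6 that passed the authors' reproducibility step across both replicates, each ranked by the authors' signal value with rank 1 the strongest. The list of each replicate alone holds 30000 regions, background regions included. Peak lists give no read totals and the depth is unknown, so the intervals given are exact binomial 95% intervals for counting error only.

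MicroRNAs are short RNAs cut from a hairpin within a longer primary transcript, first by Drosha with its partner Pasha in the nucleus and then by Dicer-1 in the cytoplasm. The mature strand is loaded into Argonaute-1, and bases 2 to 8 of the strand, the seed, pair with target messenger RNAs and lead to their repression. Some fly miRNAs have their own noncoding primary transcript, others lie in introns of protein-coding genes and are made from the host transcript. CLAMP is a zinc-finger protein that binds GA repeats and helps the male dosage compensation complex to reach the X chromosome.

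A CLAMP summit fell inside the hairpin itself at 2 miRNA genes, mir-4962 and mir-9377, both on X. The hairpin of mir-4962 (FBgn0263532, X:3777382-3777505, plus strand) lies in an intron of Tlk, the Tousled-like kinase gene. The hairpin of mir-9377 (FBgn0283559, X:12665217-12665268, plus strand) lies in an intron of Tis11, which encodes a zinc-finger protein of messenger RNA decay. The hairpin sequences are shown because the summit falls within them, 5′ to 3′ on the miRNA strand from the Release 6 genome of RefSeq, with the mature strands in capitals.
mir-4962: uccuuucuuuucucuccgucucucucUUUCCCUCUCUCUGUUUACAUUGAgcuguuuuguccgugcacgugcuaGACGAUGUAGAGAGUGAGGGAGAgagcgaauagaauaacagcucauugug
mir-9377: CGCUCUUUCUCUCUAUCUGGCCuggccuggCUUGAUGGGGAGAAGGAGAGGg

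The summit stood at base 65 of the 124 bases of mir-4962, between the mature strands, and at base 48 of the 52 bases of mir-9377, inside the 3p strand. The peak at mir-4962 had a signal of 1342 and rank 277 in the optimal list, rank 309 in replicate 4 and rank 204 in replicate 2. The peak at mir-9377 had a signal of 1642 and rank 209, with ranks 191 and 346 in replicates 4 and 2. Both peaks were thus among the stronger peaks of either replicate. A GA run, an uninterrupted alternation of G and A or of C and T of 8 bp or more read on either strand, stood within 100 bp of the mir-4962 summit and was 9 bp long. That run lies within the hairpin and reaches the start of the 5p strand, whereas the longest alternation around the mir-9377 summit was 7 bp, short of the minimum. Of all 260 hairpins, 4 contained a GA run in their own sequence, namely mir-4962, mir-3645, mir-14 and mir-967. The nearest summits of the first 3 of these lay at 0, 125 and 276 bp, and that of mir-967, which has the longest run (13 bp), lay 61156 bp away. The region around mir-4962 held 5 optimal peaks within 10 kb of the hairpin. Among them, a peak in Tlk 2373 bp from the hairpin (signal 949, rank 432) had a GA run of 28 bp. Tlk had a further peak of signal 1912 (rank 169) 91 bp from one of its transcription start sites.

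Windows around summits at 4 loci are printed because each holds a long GA run near a miRNA gene or its start, each of 201 bases centred on a summit, plus strand of dm6, with a GA or CT run in capitals.
mir-10, intron of its primary transcript, 3R:6810728-6810928: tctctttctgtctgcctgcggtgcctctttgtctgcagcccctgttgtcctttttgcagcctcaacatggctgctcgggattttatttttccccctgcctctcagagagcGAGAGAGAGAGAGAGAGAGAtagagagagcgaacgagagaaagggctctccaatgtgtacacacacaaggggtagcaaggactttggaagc
mir-13b-1, mir-13a and mir-2c, start of the primary transcript, 3R:15420614-15420814: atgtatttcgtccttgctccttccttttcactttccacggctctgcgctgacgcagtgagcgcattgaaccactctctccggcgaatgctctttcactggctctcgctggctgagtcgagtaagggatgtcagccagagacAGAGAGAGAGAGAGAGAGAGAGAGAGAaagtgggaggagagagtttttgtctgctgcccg
mir-bft, start of the primary transcript, 2L:11971089-11971289: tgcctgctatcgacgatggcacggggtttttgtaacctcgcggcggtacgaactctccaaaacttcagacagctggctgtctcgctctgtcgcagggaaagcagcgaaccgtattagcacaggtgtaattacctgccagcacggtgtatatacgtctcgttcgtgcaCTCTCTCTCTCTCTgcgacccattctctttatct
mir-4965, intron of Nup153 (start of the window in an exon), X:16607968-16608168: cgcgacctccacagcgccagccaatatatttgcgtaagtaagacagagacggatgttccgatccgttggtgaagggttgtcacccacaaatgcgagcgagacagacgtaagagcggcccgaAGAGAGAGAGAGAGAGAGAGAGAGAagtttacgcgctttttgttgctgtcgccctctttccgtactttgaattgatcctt

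The runs measured 20 bp at mir-10, 27 bp at the mir-13b-1 cluster, 14 bp at the start of the mir-bft transcript and 25 bp at mir-4965. The centres of these runs lay 19.5, 54, 73.5 and 33 bp from the summits. These peaks had signals of 1060, 324, 1468 and 1517, so the longest of these 4 runs stood under the weakest of these 4 peaks. The 4 loci are examples, and the run of 28 bp near mir-4962, under a peak of signal 949, is longer than any of them. Such runs were not the rule near miRNA genes. Of the 147 optimal peaks within 10 kb of a hairpin, 48 held a run within 100 bp of the summit (32.7%, interval 25.2 to 40.9%), against 34.4% of all optimal peaks. Among the 32 peaks within 2 kb of a hairpin the share was 46.9% (15 peaks, interval 29.1 to 65.3%), an interval that includes the share of all peaks.

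Of the 198 clusters, 24 had an optimal summit within 2 kb of a hairpin (12.1%, interval 7.92 to 17.5%) and 80 within 10 kb (40.4%, interval 33.5 to 47.6%). Among the starts of the other 17423 annotated genes, 12.5% had a summit within 2 kb and 35.1% within 10 kb. The 2 kb share of clusters is thus close to that of gene starts, and at 10 kb the share of other genes also lies inside the interval of the clusters. The units differ, since a cluster counts through any base of its hairpins and another gene through its start alone. Placing each cluster at every possible position of its own arm gave 8.31% within 2 kb and 28.1% within 10 kb. The 10 kb value is below the interval of the clusters, and the 2 kb value is inside it, near its lower end. Counted singly, 25 of 260 hairpins lay within 2 kb (9.62%) and 109 within 10 kb (41.9%), and the median hairpin was 12397 bp from a summit. Other small RNA genes, clustered in the same way, had shares of 16.2% within 2 kb and 42.9% within 10 kb for snoRNA genes, and 13.5% and 33.8% for tRNA genes. Both lie within the intervals of the miRNA clusters. The 21 snRNA gene clusters had lower shares, 4.76% and 23.8%, with an interval of 8.22 to 47.2% for the latter.

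**Figure D1:**
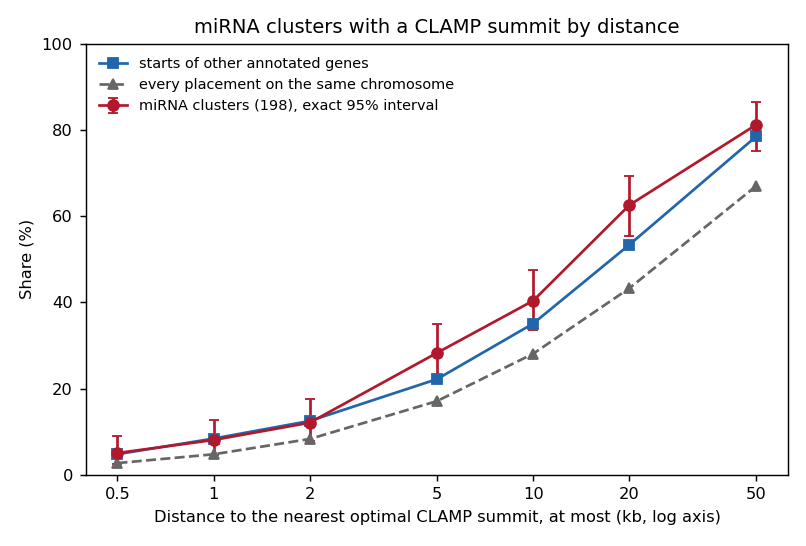
Share of the 198 miRNA clusters (red, exact 95% intervals), of the starts of other annotated genes (blue) and of every placement on the same chromosome (grey) with an optimal CLAMP summit within a distance, in kb on a log axis. The red points follow the blue ones at 2 kb (12.1 and 12.5%) and lie above the grey ones at each of the 7 distances.

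Within 2 kb, 9 of 39 clusters on X had a summit (23.1%, interval 11.1 to 39.3%), where placements on X gave 12.3%. On 3R 7 of 48 clusters were as close (14.6% against 7.39% of placements) and on 2L 4 of 39 (10.3 against 7.42%). On 3L 2 of 30 clusters (6.67 against 6.97%) and on 2R 2 of 40 (5 against 7.78%) were at or below the placement share, and on chromosome 4 none of 2. The interval of each of these arms includes its placement share. At 10 kb the share on 2R was 47.5% (interval 31.5 to 63.9%) against 26.6% of placements, which lies outside the interval. On X it was 46.2% against 38.8%, on 2L 38.5 against 25.4%, on 3R 37.5 against 25.2% and on 3L 33.3 against 25.7%, each placement share lying inside the interval. None of the 2 clusters on chromosome 4 was as close. Hairpins within a protein-coding gene were within 2 kb of a summit in 19 of 166 cases (11.4%), against 8.48% of all bases within such genes, and within 10 kb in 68 cases (41.0%), against 30.7%. Hairpins elsewhere were within 2 kb in 6 of 94 cases (6.38%), against 5.93% of bases there, and within 10 kb in 41 cases (43.6%), against 20.7%. Hairpins of a cluster share a summit and are not independent. With hairpins of a cluster counted once, 59 of 142 groups inside protein-coding genes (41.5%, interval 33.3 to 50.1%) and 21 of 58 outside (36.2%, interval 24 to 49.9%) lay within 10 kb.

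Of the 3 clusters of the Hox complexes, 2 had a summit within 2 kb, where placements of these clusters gave 7.04% and 12.1% of all clusters were as close. A share over 3 clusters is not read further. Hairpins mir-iab-4 and mir-iab-8, transcribed from opposite strands of the same bases in the bithorax complex and known to repress Ubx, had the nearest summit at 261 bp, upstream of mir-iab-4. That peak was among the weakest of the list, with a signal of 130, rank 2873, and ranks 2772 and 3895 in replicates 4 and 2. The locus had 4 optimal peaks within 10 kb, the strongest of them 8881 bp away with a signal of 5952 and rank 8, ranked 7 and 11 in replicates 4 and 2. For mir-10, in the Antennapedia complex, the summit lay 1246 bp upstream with a signal of 1060 and ranks 359 and 388 in replicates 4 and 2. The same summit stood 9 bp from the start of lncRNA:CR45915, a noncoding gene on the other strand. The third cluster, mir-993, lay 13984 bp from a peak of signal 369.

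The hairpins of mir-iab-4 and mir-iab-8 and the mature strands of mir-10 are shown for what they share in sequence, with mature strands in capitals in the hairpins and the seed in capitals in the mature strands.
mir-iab-4, 3R:16856275-16856342, plus strand: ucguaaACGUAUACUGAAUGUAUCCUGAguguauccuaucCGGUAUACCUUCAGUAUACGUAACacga
mir-iab-8, 3R:16856275-16856342, minus strand: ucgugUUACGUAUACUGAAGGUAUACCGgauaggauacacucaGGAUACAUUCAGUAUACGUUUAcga
mir-10-5p: aCCCUGUAgauccgaauuuguu
mir-10-3p: cAAAUUCGguucuagagagguuu
mir-1006-3p: uAAAUUCGauuucuuauucauag

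Both iab hairpins come from the same 68 bases read in opposite directions, and they give mature strands with different seeds. The 3p strand of mir-10 shared its seed, AAAUUCG, with the 3p strand of mir-1006, whose nearest summit was 3579 bp away.

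Among the miRNAs of growth, cell death and metabolism, 3 of 11 clusters lay within 2 kb and 8 within 10 kb, where placements of these clusters gave 8.46 and 27.6% and all clusters 12.1 and 40.4%. The cluster of mir-277 counts within 2 kb only through mir-317, which is not a listed miRNA. The hairpin of mir-277 itself lay 6439 bp from a summit. The same cluster is counted again among the heterochronic miRNAs below. The bantam gene, mir-ban, which is not on that list, promotes growth and blocks cell death through the gene hid, and had its nearest summit 1634 bp upstream with a signal of 1058 and ranks 363 and 457 in replicates 4 and 2. For mir-14, a suppressor of cell death that also acts on fat metabolism, the nearest summit lay 276 bp downstream and was weak (signal 141, ranks 7186 and 2266 in replicates 4 and 2), and a stronger peak of signal 1424 stood at the start of its transcript. Near mir-33, in an intron of the lipid regulator gene SREBP, the summit was 6110 bp upstream with a signal of 2379 and ranks 123 and 120, nearer to a start of the neighbouring gene CG42637 than to one of SREBP. For mir-184, known from the germ line and early embryo, the summit lay 7981 bp upstream with a signal of 717. The pair mir-998 and mir-11, in an intron of the cell cycle gene E2f1, had a summit 3411 bp downstream (signal 460), 568 bp from a start of InR, the insulin receptor gene. The clusters of mir-278, mir-308 and mir-2b-1 lay beyond 10 kb, at 19099, 30683 and 87816 bp.

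The miR-2 family, whose members repress the cell death genes of the reaper group, shares the seed AUCACAG with mir-6, mir-11, mir-308 and others, in all 14 hairpins of 7 clusters. Of these clusters 1 lay within 2 kb and 4 within 10 kb of a summit. The strands of 3 members are shown, as they come from 2 loci with nearby peaks, with the seed in capitals.
mir-2a-1-3p, 2L: uAUCACAGccagcuuugaugagc
mir-2c-3p, 3R: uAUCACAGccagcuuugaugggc
mir-13a-3p, 3R: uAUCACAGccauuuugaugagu

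The cluster of mir-2a-2, mir-2a-1 and mir-2b-2 lies in spi, which encodes the EGF receptor ligand Spitz, and had a summit 1809 bp upstream with a signal of 776 and ranks 756 and 292 in replicates 4 and 2. The summit nearest to mir-2c, mir-13a and mir-13b-1 stood 2869 bp upstream of mir-2c and 4 bp from the annotated start of the primary transcript, with ranks 1160 and 1569. Over all miRNAs, 481 mature strands carried 426 different seeds, and 28 seeds were shared by at least 2 clusters. For 6 of these 28 seeds all clusters lay within 10 kb of a summit, and for 7 none did. Of all clusters 40.4% were as close, and no expected count of such seeds was computed, so these counts are not read further. The seeds are also not separate families. Among those with no cluster within 10 kb, AUUGAAG and GUAUUUU come from the same mir-10404 hairpins. GCUAUGC and GGCAAGA both come from mir-31a and mir-31b. An example of a seed with all clusters within 10 kb is GAACACA, shared by mir-317 and mir-4943, with summits at 1801 and 836 bp. Another is AUUGCAC, shared by mir-92a, mir-92b and 4 hairpins of the mir-310 cluster.

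Nervous system and sense organ miRNAs had a summit within 2 kb at 3 of 15 clusters and within 10 kb at 8, where placements of these clusters gave 8.95 and 27.5% and all clusters 12.1 and 40.4%. For mir-bft, also known as mir-263a and needed for survival of bristle precursors, the nearest summit lay 784 bp downstream with a signal of 165, and it was missing from the list of replicate 4. For mir-1000, which acts on the glutamate transporter of neurons, the nearest summit lay 322 bp downstream with a signal of 364 and ranks 1133 and 1270. The third, mir-92a with mir-92b in the gene jigr1, had a summit 589 bp downstream of mir-92a with a signal of 717 and ranks 570 and 779. The nearest summit of mir-8, which acts in Wingless signalling and growth, was 2510 bp upstream and strong, at a signal of 3772 and ranks 40 and 63 in replicates 4 and 2. The neuronal mir-124 was 22834 bp from a summit, mir-9a of sensory organ precursors 25435 bp, and mir-263b 145001 bp, the largest distance on this list.

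No summit lay within 10 kb of the muscle miRNAs, with mir-1 at 58496 bp and mir-133 at 21831 bp, or of the mir-309 cluster, whose 8 hairpins clear maternal messenger RNAs in the early embryo. The distances of that cluster ran from 28732 to 29722 bp, with the same summit nearest to each hairpin. The heterochronic miRNAs had 1 of 2 clusters within 2 kb, through mir-317, which shares a cluster with mir-34, and 2 of 2 within 10 kb, where placements gave 11.1 and 29.2%. In the let-7 complex, mir-100 lay 3690 bp, mir-let7 4290 bp and mir-125 4571 bp downstream of a summit of signal 150 with ranks 2206 and 3809. For mir-34 itself the nearest summit, 7353 bp upstream, had a signal of 306 and was missing from the list of replicate 4. Of the 4 rapidly evolving clusters 2 lay within 10 kb, where placements gave 36.1% and all clusters 40.4%. These were that of mir-972 with a summit at 2494 bp and that of mir-310 to mir-992 with a summit at 2672 bp. The latter peak (signal 1115, ranks 391 and 265) stood 526 bp from a start of HnRNP-K, the host gene of mir-7.

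The other clusters within 2 kb lay mostly in protein-coding genes. Within 500 bp these were mir-4911 in ND-23, mir-3645 in Mlc-c, mir-9370 in Amun, mir-3643 in OstDelta and mir-1001 in tau, at 95, 125, 314, 330 and 410 bp. Their signals were 165, 511, 373, 556 and 149, all below those of the peaks inside mir-4962 and mir-9377, and the peak at mir-4911 was missing from the list of replicate 2. From 500 bp to 2 kb followed mir-4955 in trol, the perlecan gene, mir-9374 in the nuclear receptor gene Hr39, mir-4959 in the innexin gene Inx5, mir-4943 in CG5953, mir-4961 in ssx and mir-4957 opposite to the topoisomerase gene Top1. Their summits lay between 715 and 1110 bp away with signals from 138 to 480, and those of mir-9374 and mir-4961 were missing from the list of replicate 4. Further out stood mir-316, which has its own primary transcript, at 1327 bp, the cluster of mir-317, mir-277 and mir-34 at 1801 bp and mir-4965 in the nucleoporin gene Nup153 at 1874 bp.

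Among the clusters with a summit 2 to 10 kb away, mir-4981 had the strongest nearest peak, 3618 bp downstream with a signal of 4149 and ranks 32 and 48. The other summits in this range with high signal included those of mir-4978 (1535), mir-4983 (1218), mir-9372 in Dredd (1001), mir-1013 in the Hippo pathway kinase gene wts (993), mir-980 (993), mir-4975 (959), mir-4949 in the ATP synthase gene ATPsynC (886), mir-965 in the chromatin remodeller gene kis (735) and mir-1005 in Atet (722). All of these were in the lists of both replicates except that of mir-980, which was missing from the list of replicate 4 and ranked 297 in replicate 2.

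The summit lay more often upstream than downstream of the miRNA. Of 78 clusters on a single strand with a summit within 10 kb, the nearest summit was upstream of the hairpin in 50 (64.1%, interval 52.4 to 74.7%), within the extent of the cluster in 3 and downstream in 25. Where the nearest hairpin lay in a protein-coding host the counts were 32 upstream, 3 inside and 17 downstream. In noncoding hosts they were 10, 0 and 4. A share of placements by side was not computed, and the intervals for single contexts are wide, 41.9 to 91.6% for noncoding hosts.

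**Figure D2:**
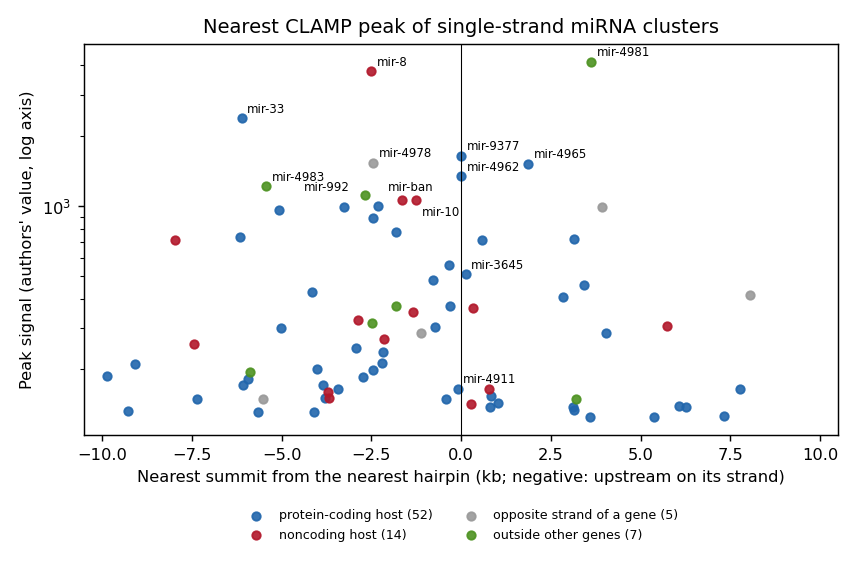
Position of the nearest optimal summit relative to the nearest hairpin (kb, negative upstream on the hairpin strand) against the peak signal on a log axis, 1 point for each of the 78 single-strand clusters within 10 kb, coloured by where the hairpin lies. Summits upstream (50 clusters) outnumber those downstream (25), the 3 within the extent of a cluster are drawn at or right of 0, and mir-8 and mir-4981 have the highest signals.

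Host genes had a CLAMP peak at their start more often than genes in general. An optimal summit lay within 1 kb of an annotated transcription start site of 52 of the 165 host genes (31.5%, interval 24.5 to 39.2%), against 9.95% of all protein-coding and noncoding genes. Some hosts overlap, such as CG45092 and chk, which have the same coordinates and the same start peak. Hosts are thus not all independent, which the intervals do not take into account. For protein-coding hosts the count was 38 of 128 (29.7%), against 10.2% of all protein-coding genes. Noncoding hosts reached 14 of 37 (37.8%, interval 22.5 to 55.2%), against 7.97% of noncoding genes that host no miRNA. Host genes were also longer, with a median of 14094 bp for protein-coding hosts and 2147 bp for protein-coding genes that are no host, and longer genes had start peaks more often in both sets. Among protein-coding genes of 10 kb or more, 28 of 73 hosts (38.4%, interval 27.2 to 50.5%) and 27.3% of the others had such a peak. Among those under 10 kb, 10 of 55 hosts (18.2%, interval 9.08 to 30.9%) and 7.29% of the others did. The difference was thus smaller within a length class, and for long protein-coding genes the share of the others lies just inside the interval of the hosts. Over all lengths, noncoding hosts had a median of 6436 bp and the other noncoding genes 701 bp. Among short noncoding genes 7 of 23 hosts (30.4%, interval 13.2 to 52.9%) and 7.74% of the others had a start peak. Among those of 10 kb or more, 7 of 14 hosts (50%, interval 23 to 77%) and 9 of 41 others did. Length also differed among genes under 10 kb. Medians there were 3150 and 695 bp for noncoding hosts and others, and 3486 and 1823 bp for protein-coding ones. The shares under 10 kb are thus not fully matched for length.

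**Figure D3:**
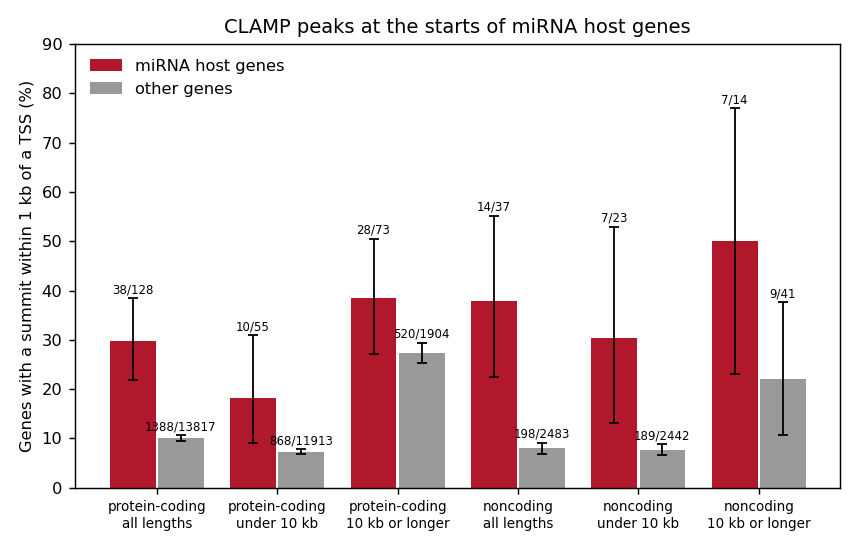
Share of genes with an optimal summit within 1 kb of a transcription start site, in percent, for miRNA host genes (red) and genes that host none (grey), by gene type and length, with exact 95% intervals and the counts above the bars. Hosts have the higher share in each pair, and the gap is narrower among protein-coding genes of 10 kb or more (38.4 and 27.3%) than over all lengths.

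The protein-coding hosts with the strongest start peaks, named after their values had been seen, were tup, a LIM homeobox gene and host of mir-4946 (signal 4445, rank 28), and hth, the homothorax homeobox gene and host of mir-4944 (signal 4380, rank 29). These start peaks lay far from the hairpins. The summit at tup was 14411 bp from mir-4946, and the summit nearest to mir-4944 was a different one, 4004 bp away with a signal of 200. Further hosts with a start peak were Tlk, HnRNP-K (host of mir-7, signal 1115), Dredd (1001), rdgA (972), spi (776), jigr1 (717) and wts (680). The peak at Dredd stood 533 bp from its start but nearer, at 188 bp, to a start of the neighbouring gene su(sable). Start peaks of the hosts Kpc1 and OstDelta likewise stood nearer to a start of another gene, CG42542 and asRNA:CR44416. SREBP, E2f1 and grp, which holds mir-9b, mir-9c, mir-79 and mir-306, had none.

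RefSeq gives a primary miRNA transcript name to 24 of the noncoding hosts, and 10 of them had a summit within 1 kb of a start. Of the noncoding genes that host no miRNA, 7.97% had such a summit. By length, these were 7.74% of those under 10 kb and 9 of 41 of those of 10 kb or more. The named transcripts differ in length, and neither an interval nor a length-matched share was computed for the 24. The strongest of the 10 start peaks was that of the mir-8 transcript (lncRNA:CR43650), 173 bp from the start with a signal of 3772. It was followed by the transcript of mir-bft (lncRNA:CR43314, signal 1468, ranks 222 and 353 in replicates 4 and 2, 95 bp from the start), mir-14 (lncRNA:CR43651, signal 1424, ranks 263 and 217, 108 bp) and mir-ban (lncRNA:CR43334, signal 1058, 860 bp from an alternative start). The start of the mir-bft transcript is 17591 bp from the hairpin, so this peak of rank 250 is far from the weak one beside the hairpin. The mir-ban transcript had a further, weaker summit (signal 559, rank 792) within 1 kb of the start of the gene itself. Start peaks of moderate signal stood at the transcripts of mir-184 (717, at an alternative start), mir-1000 (551), mir-iab-4 (366), mir-316 (351), the mir-13b-1 cluster (324) and the pair mir-277 and mir-34 (306, missing from the list of replicate 4). The 14 named transcripts without a start peak include those of mir-1, mir-124, mir-9a, the mir-309 cluster, mir-279 with mir-996, mir-315 and mir-252. The let-7 complex, mir-10 and mir-276a transcripts had none at a start either, but each had an optimal peak inside the gene. Noncoding hosts without such a name but with a start peak were lncRNA:iab8 (signal 1968), lncRNA:Hsromega, the heat shock RNA gene and host of mir-4951 (482), lncRNA:CR46004 (mir-276b, 289) and lncRNA:CR43857 (mir-275, 268).

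**Figure D4:**
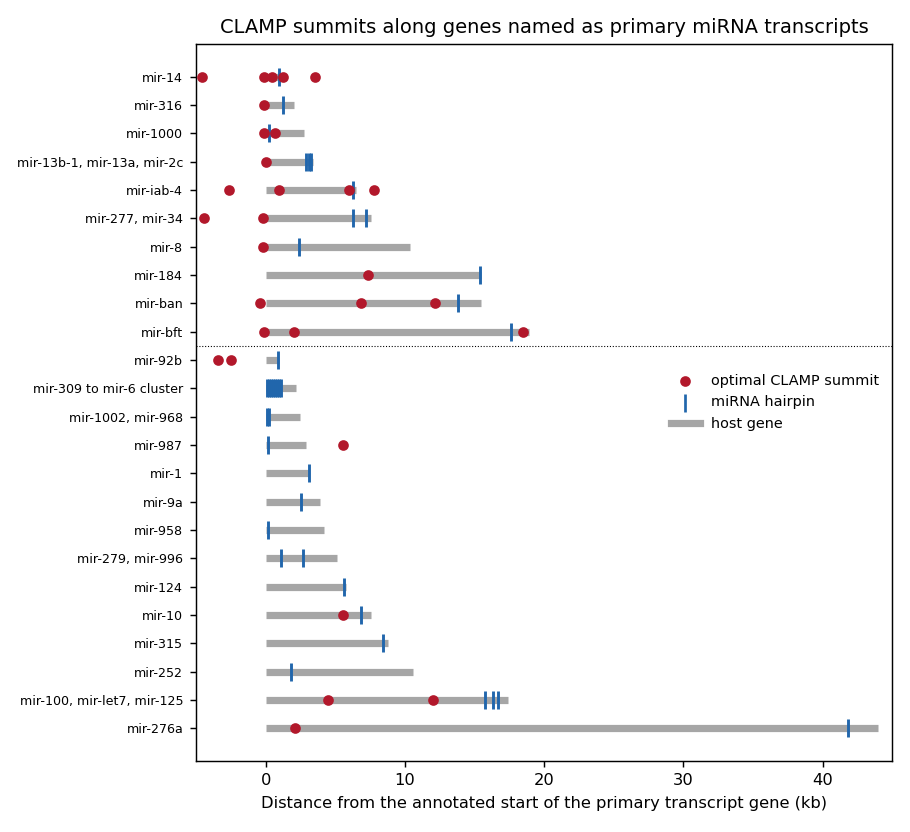
The 24 noncoding host genes that RefSeq names as primary miRNA transcripts, each drawn as a grey bar from its annotated start at 0 kb, with hairpins as blue ticks and optimal CLAMP summits within 5 kb of the gene as red points. The 10 genes above the dotted line have a summit within 1 kb of an annotated start, which for mir-184 and mir-ban includes an alternative start within the gene.

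Most peaks near miRNA genes had a region in the lists of both replicates, but the optimal list had already been selected for reproducibility across them. Of the 147 optimal peaks within 10 kb of a hairpin, 125 had a summit within 200 bp in the lists of both replicates (85.0%, interval 78.2 to 90.4%), against 79.9% of all optimal peaks. Of the rest, 17 were found only in replicate 2, 4 only in replicate 4 and 1 in neither. The 18 missing from the list of replicate 4 had a median signal of 182, and the 5 missing from that of replicate 2 had a median of 126, both under the median of 306 for the 147 peaks. Over all optimal peaks the median signal was 273. Each replicate list holds 30000 regions, background included, so weak regions also counted as found, such as one of rank 27845 in replicate 2. With only the strongest regions of each list, 92 of the 147 peaks were in both. No matching share of all optimal peaks is given, so this count is not read as high or low. Ranks in the lists of both replicates rose together, with a Spearman correlation of 0.838 over the 125 peaks, given as a description since the peaks share the same libraries. These 147 peaks made up 4.78% of the optimal list, while 3.0% of the bases of the 6 arms lie within 10 kb of a hairpin. Among the 300 strongest optimal peaks 12 lay within 10 kb of a hairpin, which is 4% of them. Of the 147 peaks, 36.7% lay within 500 bp of a transcription start site, against 35.0% of all optimal peaks.

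**Figure D5:**
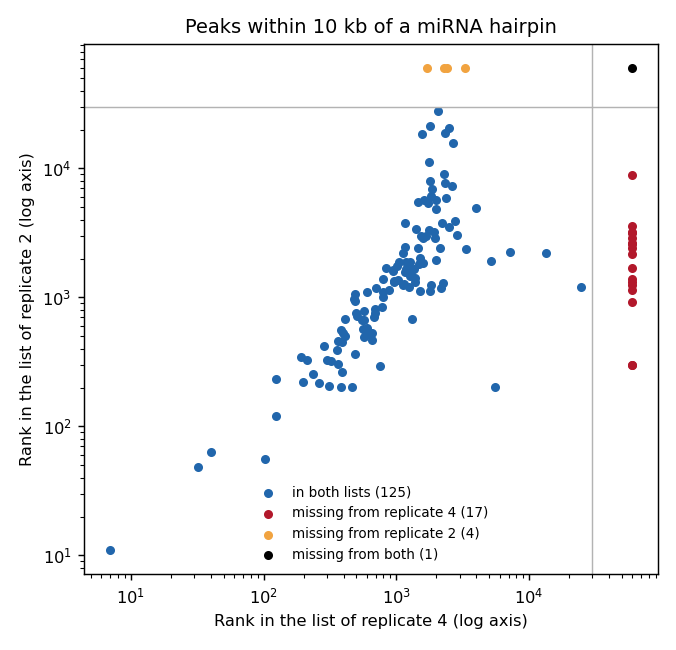
Rank by signal of the 147 peaks within 10 kb of a miRNA hairpin in the lists of replicate 4 and replicate 2, both on log axes, where rank 1 is the strongest of 30000 regions and points beyond the grey lines were missing from a list. The 125 peaks found in both lists lie along the diagonal for strong peaks and spread widely at weaker ranks.

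Of 22 genes of the miRNA pathway, 4 had a summit within 1 kb of a transcription start site (18.2%, interval 5.19 to 40.3%), against 10.2% of protein-coding genes. AGO1, which encodes the Argonaute protein that carries miRNAs, had a peak of signal 2256 and rank 130, ranked 136 and 121 in replicates 4 and 2, 73 bp from a start. Not1, the scaffold of the CCR4-NOT deadenylase that acts on repressed messenger RNAs, had a peak of signal 1986, ranked 144 and 192, 55 bp from a start. The deadenylase genes PAN3 and PAN2 had weaker peaks, with signals of 456 and 148, and that of PAN2 was missing from the list of replicate 2. The processing genes drosha, pasha, Dcr-1 and loqs, the genes Dcr-2, r2d2 and AGO2 of the small interfering RNA pathway, and gw, which encodes the silencing partner of AGO1, had no summit within 1 kb. The nearest of these was at pasha, 3744 bp from a start, and the farthest at gw on chromosome 4, 146666 bp.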

How the data were processed

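CLAMP ChIP-seq peak lists of 2 biological replicates and of both together were used, in dm6. The list of each replicate came from its own alignment and 1 control, and the optimal list from an irreproducible discovery rate step, per the deposited text files. The sources used here name no aligner, peak caller or threshold. The signal of each peak is the authors' own value, whose scaling to depth is not stated. It served only to rank and describe peaks within a list. The deposited score column was not used. Depth is unknown from these lists. Nothing says how the replicates were raised, so their spread may be technical.

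All 3077 optimal peaks also stood in the pooled list with the same position and signal, and none ended beyond its chromosome. Genes and starts came from the BDGP annotation 6.54 of Ensembl release 115, without separate entries for mature strands, and sequences and transcript names from the Release 6 genome of RefSeq. Distance ran from the summit to the nearest hairpin base. A peak was found in a replicate when a region summit of that list lay within 200 bp. Placement shares are exact counts over all positions of an arm and were not drawn. The miRNA and pathway lists came from general knowledge. The members and lists were chosen with earlier results of these data known. The genes named are the clusters within 2 kb, the 15 clusters of highest signal from 2 to 10 kb, their hosts, list members and pathway genes with a peak. Other hosts, and hairpins that contain a GA run or share a seed, were named after their values were seen. The list entry mir-263a was matched to its current symbol mir-bft. Alternatives were each replicate alone, the stronger optimal peaks, peaks found in both replicates, and other distances, joins, runs and windows. The methods were tested on simulated data. Computations ran in Python 3.11.15 with pandas 2.3.3, numpy 2.4.6 and scipy 1.17.1.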

Additional observations from a re-analysis of the deposited data

How the results depend on the processing

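Of 57 alternative values, 52 stayed within the set limits. These were 1.5 times for counts, and the exact interval or replicate spread for shares and ratios. The limit for counts is wide, as 92 peaks found in both replicates in place of 125 stayed within it. Counts have no direction, so no reversal could be seen for them. With the stronger optimal peaks alone, 51 clusters lay within 10 kb, where placements gave 17%, and 41% of the peaks near hairpins held a GA run, against 40.9% of all stronger peaks. The ratio of the median signal near hairpins to that of all peaks was then 1.26, against 1.12 for the whole list. Fewer peaks by construction give fewer clusters. At 20 kb, 124 clusters had a summit (62.6%, interval 55.5 to 69.4%). Placements gave 43.3% and the starts of other genes 53.4%, both below that interval. With a minimum run of 12 bp, 15.6% of the peaks near hairpins and 16.1% of all peaks held a run. With each replicate alone, at the same number of peaks, 27 to 31 clusters lay within 2 kb, 80 to 85 within 10 kb, and 47 to 54 hosts had a start peak. Within 2 kb these were 13.6 and 15.7% of clusters, where placements gave 8.32 and 8.27%. Within 10 kb they were 40.4 and 42.9%, against 27.6 and 28% of placements. With the stronger optimal peaks, 9.09% of clusters lay within 2 kb, against 4.49% of placements. With the optimal peaks found in both replicates these shares were 10.6 and 6.72%. Intervals were not computed for these alternatives. The 2 kb placement share is thus known to lie inside the interval for the optimal list only, and its place in the alternatives was not tested. Counts for the named primary transcripts ran from 9 to 11 over all alternatives, which for these were chosen after seeing the data. No paired analysis was possible because both replicates belong to 1 group and no test was run.

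With 198 clusters and 24 hosts named as primary transcripts, the intervals are wide, and groups within them wider. Hairpins in near-identical copies, such as mir-10404-3 to mir-10404-5, none within 10 kb of a summit, may lie where reads cannot be placed, and this was not tested.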

Other observations

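Counted by cluster, miRNAs on the strand opposite to an annotated gene had a summit within 10 kb at 5 of 19 loci (26.3%, interval 9.15 to 51.2%), where placements of these clusters gave 30.2%. The matching counts were 16 of 32 in noncoding hosts (50%, interval 31.9 to 68.1%, placements 26.8%), 53 of 124 in protein-coding hosts (42.7%, interval 33.9 to 51.9%, placements 28.3%) and 9 of 32 outside other genes (28.1%, interval 13.7 to 46.7%, placements 28.3%). Hairpins of a single cluster can fall in more than 1 of these contexts, and no difference between the contexts was tested.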
